A study of Mus musculus with 16 samples.

Results

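TIM-3 positive and TIM-3 negative CD8+ T cells of the same age in culture were compared in 6 RNA-seq libraries, 3 of each kind, of the 12 RNA-seq libraries and 16 samples of the series. Members were taken by their labels: the Tex libraries of replicates 1 to 3 were set against the Teff2 libraries of replicates 1 to 3, in the matrix of raw counts, and fitted within pairs of equal replicate number. Both groups came from naive CD8+ T cells of C57BL/6 mouse spleen, a common inbred strain, activated through CD3e and CD28 by antibodies at 10 µg/ml each and grown with IL-2 at 300 U/ml. Cells of both groups were sorted on day 5 as CD8+ PD-1+, and they differed in the last gate only: TIM-3- cells were called Teff2 and TIM-3+ cells were called Tex. Each library was made from 200000 cells. The labels name no genetic change and no infection, so both groups were cultures driven by antibody and cytokine alone, and the labels do not say whether replicates were separate animals or cultures. The fit takes out pair and group, so the p-values rest on the spread that is left within the pairs, part of which may be technical. The other RNA libraries, naive cells of day 0 (Tn) and PD-1+ TIM-3- cells of day 2 (Teff1), serve only as levels beside a few genes, and the 4 Hi-C samples were not analysed here.

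TIM-3, the product of Havcr2, is a surface receptor of activated T cells and some myeloid cells that is widely read together with PD-1 as a mark of T cells that have been stimulated for long. Killer T cells carry granzymes and perforin in granules, protect themselves from stray granzyme with inhibitors of the serpin family, and secrete cytokines such as interferon gamma. TCF-1, the product of Tcf7, is a transcription factor of naive, memory and stem-like T cells, and its loss accompanies the passage to terminal effector or exhausted states.

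The 6 libraries held 16296903 to 19598158 counts and 16692 to 18063 genes with at least 1 count. The 37 genes of the mitochondrial genome took 1.31% to 1.63% of counts. A level of 3 counts, the limit used for a gene that was not seen, equals 0.153 to 0.184 counts per 1000000 counts (CPM) in these libraries, which covers counting error only. CPM were scaled by TMM factors, and library values are listed in the order of replicates 1, 2 and 3. The sort was checked first on the genes of the sorted proteins. Havcr2 (chromosome 11, 46454931 to 46481255, + strand) stood at 0.614, 0.255 and 0.427 CPM in Teff2 and 34.5, 10.7 and 37.9 CPM in Tex, so every Tex library lay far above every Teff2 library. Its fitted log2 fold change of 5.98 (SE 0.20) describes the gate and is no finding. Pdcd1, which encodes PD-1, stood at 104, 177 and 219 CPM in Teff2 and 168, 163 and 238 CPM in Tex, and the groups overlapped (log2 fold change 0.23, SE 0.14, adjusted p = 0.422). Cd8a stood at 717, 859.5 and 853 CPM in Teff2 and 736, 828 and 793 CPM in Tex and Cd8b1 at 393, 295 and 343 CPM in Teff2 and 353, 306 and 331 CPM in Tex, also with overlap. Cd44, a receptor that marks activated T cells, stood at 258, 237 and 238 CPM in Teff2 and 468, 219.8 and 205 CPM in Tex, where the Tex library of replicate 1 was apart from the other 5. Among the other TIM family genes, Timd4 had no count in the 6 libraries, and Havcr1 and Timd2 had counts in 1 and 2 libraries, at most 0.657 CPM.

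**Figure D1:**
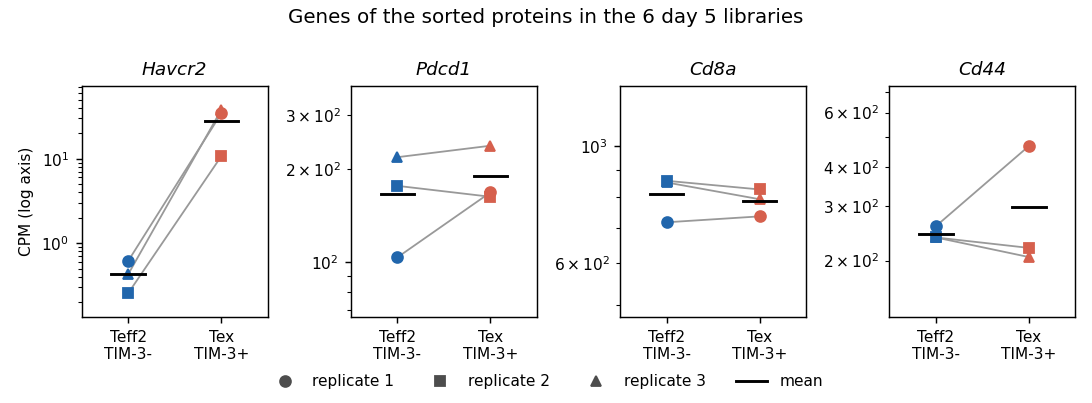
Levels in CPM (log axis) of Havcr2, Pdcd1, Cd8a and Cd44 in the 3 Teff2 and 3 Tex libraries, with lines joining libraries of equal replicate number and black bars at the group means. Havcr2 runs from 0.255 to 0.614 CPM in Teff2 and from 10.7 to 37.9 CPM in Tex, and the groups overlap for the other 3 genes.

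Within pairs, 221 of 13096 genes tested were called at an adjusted p under 0.05 (quasi-likelihood F test of edgeR, Benjamini-Hochberg adjustment over all genes tested), 126 higher and 95 lower in Tex, which is 1.69% of genes tested (0.962% higher and 0.725% lower). At least 2-fold changes made up 57 of the rises and 22 of the falls. Of these 57 rises, 29 had a mean under 10 CPM in Tex, where they were higher. Over all calls, 31 rises were under 10 CPM in Tex and 13 falls were under 10 CPM in Teff2. The called rises had a median log2 fold change of 0.85 and the called falls one of -0.71, against a median of 0.005 over all genes tested. All 221 moved the same way in each of the 3 pairs, which 21.2% (higher) and 19.5% (lower) of all genes tested did as well. The 3 Tex libraries lay wholly above the 3 Teff2 libraries for 46 of the rises and wholly below them for 33 of the falls, against 2.37% and 2.31% of all genes tested. For the other called genes the groups overlapped, and the difference is seen within pairs only.

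How far the calls rest on the pairing can be read from the same data without it. Without the replicate block 0 genes were called by edgeR, with 176 at an unadjusted p under 0.05 (1.34% of 13096), and DESeq2 without the block called 12 (0.0918%). Pair number took 81.8% of the summed squares of log2 CPM over genes in these libraries, group took 10.4% and the remainder was 7.88%. Without the pair of replicate 3, 39 genes were called (0.293%), 35 of them among the 221, while 688 (5.27%) and 529 (3.94%) genes were called without the pairs of replicates 1 and 2. The 221 kept their sign in each of these fits in which they had a value. Since all 221 moved the same way in each pair, that outcome was nearly fixed in advance. Of the 221, 32 (24 rises and 8 falls) were called in the full set and without each pair in turn. In single pairs, 320, 168 and 220 genes differed by at least 2-fold in pairs 1, 2 and 3.

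**Figure D2:**
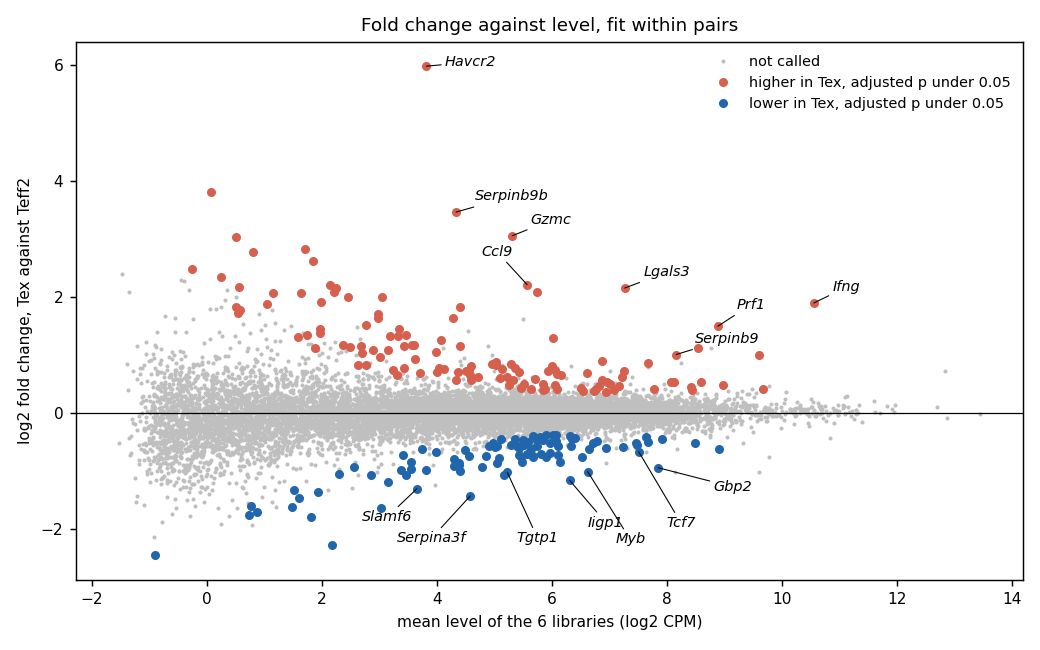
Log2 fold change of Tex against Teff2 from the fit within pairs (vertical axis) against the mean level of the 6 libraries in log2 CPM (horizontal axis), 1 point per gene tested. The 126 rises (red) reach a log2 fold change of 5.98 for Havcr2, while the 95 falls (blue) reach -2.46.

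Among genes of killer granules, Gzmc, Gzma and Prf1 rose in Tex, and Gzmc had the smallest adjusted p. They were 3 of 18 tested genes of granzymes, perforin and other granule proteins, of which none fell and 15 had a positive fold change. The list's median log2 fold change was 0.21, beside 0.005 over all genes tested, of which 0.962% rose. Gzmc, which encodes granzyme C, a serine protease of killer granules (chromosome 14, 56231397 to 56241647, - strand), stood at 14.7, 1.40 and 8.38 CPM in Teff2 and 139.7, 9.05 and 64.5 CPM in Tex. Its levels differed more than 10-fold between pairs 1 and 2 and the groups overlapped, while Tex was 9.51, 6.46 and 7.70 times Teff2 within the pairs (log2 fold change 3.05, SE 0.12, adjusted p = 5.03e-06). Prf1, which encodes the pore-forming protein perforin, stood at 35.8, 568 and 319.9 CPM in Teff2 and 242, 1028 and 640.4 CPM in Tex. It was higher in Tex in each pair, most so in pair 1 (log2 fold change 1.49, SE 0.30, adjusted p = 0.0493). Gzma, which encodes granzyme A, was near its detection limit in Teff2, with 0.563, 0 and 0.267 CPM in Teff2 and 6.57, 0.266 and 0.874 CPM in Tex, and rose (log2 fold change 3.04, SE 0.50, adjusted p = 0.0225). Gzmb, which encodes granzyme B, did not pass the test: it stood at 1913, 8797 and 7152 CPM in Teff2 and 4707, 10871 and 10416 CPM in Tex, with a log2 fold change of 0.71 (SE 0.16, adjusted p = 0.0666). Gzmb was called without pair 1 (adjusted p = 0.00466), without pair 2 (0.00255) and without a filter on low counts. None of the other alternatives called it, among them the fit without pair 3 (0.221) and DESeq2 (0.256). Gzma failed the filter on low counts without pair 1. Without pair 3, Gzmc and Gzma stayed called and Prf1 did not (adjusted p = 0.0858), and DESeq2 did not call Prf1 (adjusted p = 0.164). With the stricter filter on low counts Gzmc alone of the 3 was called, since Gzma was removed and Prf1 had an adjusted p of 0.0600, and limma on the deposited normalized values gave Gzma a log2 fold change of 1.23 (adjusted p = 0.0813). Gzmc shares much of its sequence with its neighbours Gzmd to Gzmg, so how reads were split among them is uncertain. Gzmd stood at 0.154, 0 and 0.214 CPM in Teff2 and 2.68, 0.106 and 0.976 CPM in Tex and was not tested for its low counts. Because these are bulk samples, a higher share of cells with a transcript and more of it per cell cannot be told apart, here and in all other comparisons.

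Serpins of granule-bearing cells moved in both directions. Of 10 tested, 3 clade B genes rose and 2 clade A genes fell, beside 0.962% and 0.725% of all genes tested. The list median was 0.24. Serpinb9b stood at 5.17, 0.573 and 4.43 CPM in Teff2 and 55.4, 8.36 and 46.9 CPM in Tex, so each Tex library lay above all Teff2 libraries (log2 fold change 3.46, SE 0.13, adjusted p = 5.03e-06). Serpinb9, an inhibitor of granzyme B, stood at 126, 169.6 and 281 CPM in Teff2 and 281, 330.0 and 527 CPM in Tex, or 2.22, 1.95 and 1.87 times higher within the pairs (log2 fold change 1.01, SE 0.08, adjusted p = 0.00131). Serpinb6b, an intracellular serpin of the same cluster, stood at 79.1, 159 and 499 CPM in Teff2 and 199, 330.1 and 972 CPM in Tex (log2 fold change 1.11, SE 0.09, adjusted p = 0.00131). These genes are neighbours on chromosome 13, between 32956811 and 33040588, and Serpinb9b resembles Serpinb9 closely enough that the split of reads between them is uncertain. In the other direction, Serpina3f stood at 65.7, 26.1 and 10.9 CPM in Teff2 and 27.4, 10.1 and 3.03 CPM in Tex (log2 fold change -1.43, SE 0.13, adjusted p = 0.00206) and Serpina3g, an intracellular protease inhibitor, at 66.8, 59.4 and 27.1 CPM in Teff2 and 47.0, 41.8 and 15.4 CPM in Tex (log2 fold change -0.60, SE 0.09, adjusted p = 0.0204). Both were lower in Tex in every pair while the groups overlapped. Serpina3f and Serpina3g lie side by side on chromosome 12, between 104214544 and 104241939, and are close copies as well. All but Serpina3g (adjusted p = 0.167) stayed called without pair 3.

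**Figure D3:**
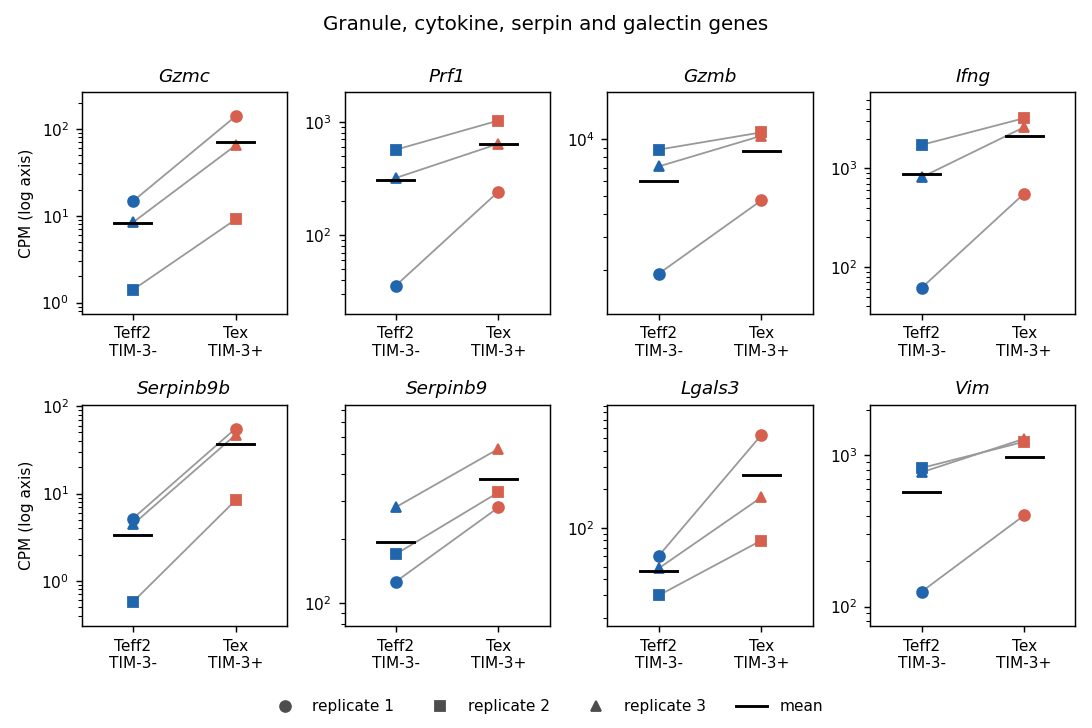
Levels in CPM (log axis) of Gzmc, Prf1, Gzmb, Ifng, Serpinb9b, Serpinb9, Lgals3 and Vim in the 6 libraries, with lines joining libraries of equal replicate number and black bars at the group means. Every line slopes up from Teff2 to Tex, from 1.24-fold for Gzmb in pair 2 to 14.6-fold for Serpinb9b in pair 2.

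Among secreted cytokines 2 of 15 tested genes rose, Ifng and Csf2, beside 0.962% of all genes tested, and none fell. Without pair 1, without pair 2 and without a filter on low counts, 4, 5 and 9 members rose and 1 fell in each. The list median was 0.41. Ifng, which encodes interferon gamma, stood at 61.3, 1733 and 814 CPM in Teff2 and 556, 3236 and 2623 CPM in Tex. Levels in pair 1 were far below those of the other pairs, and Tex was 9.07, 1.87 and 3.22 times Teff2 within the pairs (log2 fold change 1.90, SE 0.34, adjusted p = 0.0306). Csf2, which encodes the growth factor GM-CSF, stood at 7.06, 8.60 and 2.62 CPM in Teff2 and 27.4, 13.9 and 6.68 CPM in Tex (log2 fold change 1.35, SE 0.22, adjusted p = 0.0237). Neither was called without pair 3 (adjusted p = 0.0984 and 0.0952), and DESeq2 gave Ifng an adjusted p of 0.0681. Tnf, chosen for display after its values were seen, as were all uncalled genes below that the naming rule does not cover, had a log2 fold change of 0.18 (SE 0.12, adjusted p = 0.497). Il2 and Il10 were under 1 CPM in all 6 libraries and were not tested.

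Chemokine genes and their receptors held 4 rises and no fall. Ccl9, a ligand of the receptor CCR1, stood at 49.3, 1.40 and 1.28 CPM in Teff2 and 219, 6.18 and 7.35 CPM in Tex, and Tex was 4.44, 4.41 and 5.74 times Teff2 within the pairs (log2 fold change 2.21, SE 0.12, adjusted p = 4.12e-05). Ccl5, a chemokine of activated T cells, lies near it on chromosome 11 and stood at 23.8, 5.93 and 6.83 CPM in Teff2 and 38.1, 8.41 and 14.6 CPM in Tex (log2 fold change 0.77, SE 0.14, adjusted p = 0.0311). Ccl3 and Ccl4 did not pass: Ccl3 had a log2 fold change of 1.11 (SE 0.25, adjusted p = 0.0671) and Ccl4 one of 0.79 (SE 0.19, adjusted p = 0.0800). In all, 2 of 9 chemokines rose, with a median of 0.37. Of 10 chemokine receptors 2 rose, with a median of 0.21, and of all genes tested 0.962% rose. Without pair 2 and without a filter on low counts, 3 and 4 receptors rose and 2 and 1 fell. Ccr2, a receptor that guides cells to inflamed tissue, stood at 1.02, 0.573 and 1.97 CPM in Teff2 and 7.45, 2.29 and 5.29 CPM in Tex (log2 fold change 2.07, SE 0.31, adjusted p = 0.0169). Cxcr6, which binds the membrane-bound chemokine CXCL16, stood at 5.78, 4.27 and 5.07 CPM in Teff2 and 13.3, 7.45 and 18.8 CPM in Tex (log2 fold change 1.33, SE 0.20, adjusted p = 0.0173). Tex lay above Teff2 in all libraries for both receptors. Ccl9 and Ccr2 stayed called without pair 3, while Ccl5 and Cxcr6 had adjusted p values of 0.262 and 0.127.

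Of the inhibitory receptors other than TIM-3, Cd244 and Entpd1 rose in Tex. Of 17 tested these 2 were called, beside 1.69% of all genes tested. An unadjusted p under 0.05 was found for 11 (16.6% of all genes tested had one). Of the 17, 9 had a positive and 8 a negative fold change, and the list median was 0.07. Cd244, the receptor 2B4, was low throughout, with 0.461, 0.255 and 0.374 CPM in Teff2 and 3.94, 0.586 and 1.49 CPM in Tex (log2 fold change 2.35, SE 0.43, adjusted p = 0.0336). Entpd1, which encodes the ATP-degrading enzyme CD39, stood at 1.02, 3.19 and 4.80 CPM in Teff2 and 2.25, 4.74 and 14.9 CPM in Tex (log2 fold change 1.16, SE 0.24, adjusted p = 0.0482). Neither was called without pair 3 (adjusted p = 0.142 and 0.554), and Cd244 was not called without pair 1 either (adjusted p = 0.0802). Limma on the normalized values called neither (adjusted p = 0.0571 and 0.0617), and with the stricter filter Cd244 was removed and Entpd1 had an adjusted p of 0.0570. Lag3, which binds MHC class II, stood at 144, 185 and 243 CPM in Teff2 and 136, 253 and 334 CPM in Tex and was not called (log2 fold change 0.28, SE 0.11, adjusted p = 0.258). Tigit had a log2 fold change of 0.31 (SE 0.11, adjusted p = 0.196), Btla one of -0.55 (SE 0.12, adjusted p = 0.0580) and Ctla4 one of -0.03 (SE 0.18, adjusted p = 0.952). The sign of the Ctla4 value changed to 0.30 without pair 1. Of the genes listed with TIM-3 as partners, Ceacam1, a TIM-3 binding adhesion molecule, stood at 0.819, 2.74 and 6.99 CPM in Teff2 and 6.68, 5.91 and 13.2 CPM in Tex and was not called (log2 fold change 1.48, SE 0.32, adjusted p = 0.0618). Lgals9, which encodes the TIM-3 ligand galectin-9, had a log2 fold change of -0.22 (SE 0.07, adjusted p = 0.190) and Hmgb1 one of 0.02 (SE 0.07, adjusted p = 0.903).

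Costimulatory receptors of the TNF and immunoglobulin families gave 1 rise and 1 fall among 25 tested genes, with a median of -0.04. Of all genes tested 0.962% rose and 0.725% fell. Tnfrsf8, which encodes CD30, stood at 1.74, 1.47 and 1.39 CPM in Teff2 and 4.71, 8.09 and 9.15 CPM in Tex, higher in every Tex library (log2 fold change 2.20, SE 0.26, adjusted p = 0.00818). Slamf6, a receptor carried by TCF-1 positive cells, stood at 27.4, 7.77 and 19.2 CPM in Teff2 and 9.20, 4.21 and 7.50 CPM in Tex (log2 fold change -1.31, SE 0.15, adjusted p = 0.00724). Fcer1g, a signalling adaptor of NK and myeloid receptors, was the only called gene of 8 killer lectin-like and NK-type receptor genes and stood at 0.921, 0.191 and 0.374 CPM in Teff2 and 5.48, 0.532 and 1.28 CPM in Tex (log2 fold change 2.17, SE 0.37, adjusted p = 0.0254). Il2rb, the beta chain of the IL-2 and IL-15 receptors, was the 1 called gene of 28 interleukin and cytokine receptor chains. It stood at 356, 489 and 412 CPM in Teff2 and 499, 642 and 611 CPM in Tex, with no overlap between groups (log2 fold change 0.48, SE 0.08, adjusted p = 0.0241). Its partner Il2ra had a log2 fold change of 0.17 (SE 0.10, adjusted p = 0.416). Of these 4 called genes none stayed called without pair 3, and Fcer1g failed the filter on low counts without pair 1 and the stricter filter, with 0.0596 by limma (adjusted p from 0.0512 for Tnfrsf8 to 0.306 for Il2rb).

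Of 35 transcription factors of effector and exhausted cells 6 rose and none fell, beside 0.962% and 0.725% of all genes tested. The list median was 0.04, with 20 positive and 15 negative fold changes. Some alternatives called falls in the list. DESeq2 with the block called 7 rises and 2 falls. The fits without pair 1 and without a filter on low counts called 8 rises and 4 falls each, and the fit without pair 2 called 6 and 1. Batf3, an AP-1 family factor, stood at 46.1, 45.9 and 47.3 CPM in Teff2 and 87.4, 75.1 and 82.2 CPM in Tex, so the Tex libraries lay wholly above the Teff2 libraries (log2 fold change 0.81, SE 0.08, adjusted p = 0.00284). Prdm1, which encodes the repressor Blimp-1, stood at 0.409, 3.57 and 1.28 CPM in Teff2 and 1.04, 9.05 and 12.3 CPM in Tex, or 2.54, 2.54 and 9.59 times the Teff2 level within the pairs (log2 fold change 2.09, SE 0.37, adjusted p = 0.0271). Eomes, a T-box factor, stood at 30.6, 20.1 and 33.5 CPM in Teff2 and 40.7, 42.7 and 67.9 CPM in Tex (log2 fold change 0.84, SE 0.13, adjusted p = 0.0201). Id2, an inhibitor of E proteins that favours effector cells, stood at 38.7, 36.1 and 23.3 CPM in Teff2 and 61.9, 51.1 and 45.6 CPM in Tex, also without overlap (log2 fold change 0.71, SE 0.10, adjusted p = 0.0160). Runx2 had a log2 fold change of 0.73 (SE 0.09, adjusted p = 0.00885) and Nfil3 one of 0.59 (SE 0.09, adjusted p = 0.0212). Other factors that are usually read in such cells were not called. Tox, a factor of chronically stimulated T cells, stood at 11.4, 23.6 and 19.6 CPM in Teff2 and 10.5, 11.9 and 9.97 CPM in Tex and was lower in Tex in each pair (log2 fold change -0.71, SE 0.18, adjusted p = 0.0921). Nr4a1, an immediate response gene of the T cell receptor, stood at 316, 629 and 410.0 CPM in Teff2 and 233, 436 and 414 CPM in Tex (log2 fold change -0.32, SE 0.11, adjusted p = 0.199). Tbx21, which encodes T-bet, had a log2 fold change of -0.01 (SE 0.11, adjusted p = 0.966). Limma on the normalized values gave Prdm1 an adjusted p of 0.0531. Batf3 alone of the 6 stayed called without pair 3 (adjusted p = 0.0304, and 0.0952 to 0.245 for the others).

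Tcf7, Myb, Id3, Bcl6, Slamf6 and Igfbp4 of the naive and memory T cell genes fell in Tex. They were 6 of 25 tested, beside 0.725% of all genes tested. None rose, and 24 had a negative fold change, with a list median of -0.26. Tcf7 stood at 394, 138 and 135 CPM in Teff2 and 249.9, 105 and 69.5 CPM in Tex, or 0.634, 0.759 and 0.516 times the Teff2 level within the pairs (log2 fold change -0.67, SE 0.11, adjusted p = 0.0204). Its level in Tex of pair 1 exceeded that in Teff2 of the other pairs. Myb, a transcription factor that maintains stem-like T cells, stood at 162, 88.0 and 147 CPM in Teff2 and 55.6, 57.5 and 79.9 CPM in Tex, with every Tex library below every Teff2 library (log2 fold change -1.01, SE 0.15, adjusted p = 0.0164). Id3, the counterpart of Id2 in memory precursors, stood at 43.7, 37.3 and 25.9 CPM in Teff2 and 28.4, 25.4 and 11.9 CPM in Tex (log2 fold change -0.75, SE 0.12, adjusted p = 0.0232). Bcl6, a repressor opposed to Blimp-1, stood at 18.2, 1.08 and 9.39 CPM in Teff2 and 10.7, 0.479 and 3.44 CPM in Tex (log2 fold change -1.07, SE 0.19, adjusted p = 0.0306). Igfbp4 stood at 56.0, 38.9 and 13.1 CPM in Teff2 and 22.7, 28.7 and 6.17 CPM in Tex (log2 fold change -0.93, SE 0.16, adjusted p = 0.0254). Of the uncalled members, Lef1, a partner of TCF-1, had a log2 fold change of -0.25 (SE 0.10, adjusted p = 0.272), and Il7r, the IL-7 receptor, one of -0.25 (SE 0.08, adjusted p = 0.150). All 6 were called without pairs 1 and 2, and none without pair 3 (adjusted p = 0.0547 for Slamf6 to 0.306 for Bcl6).

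**Figure D4:**
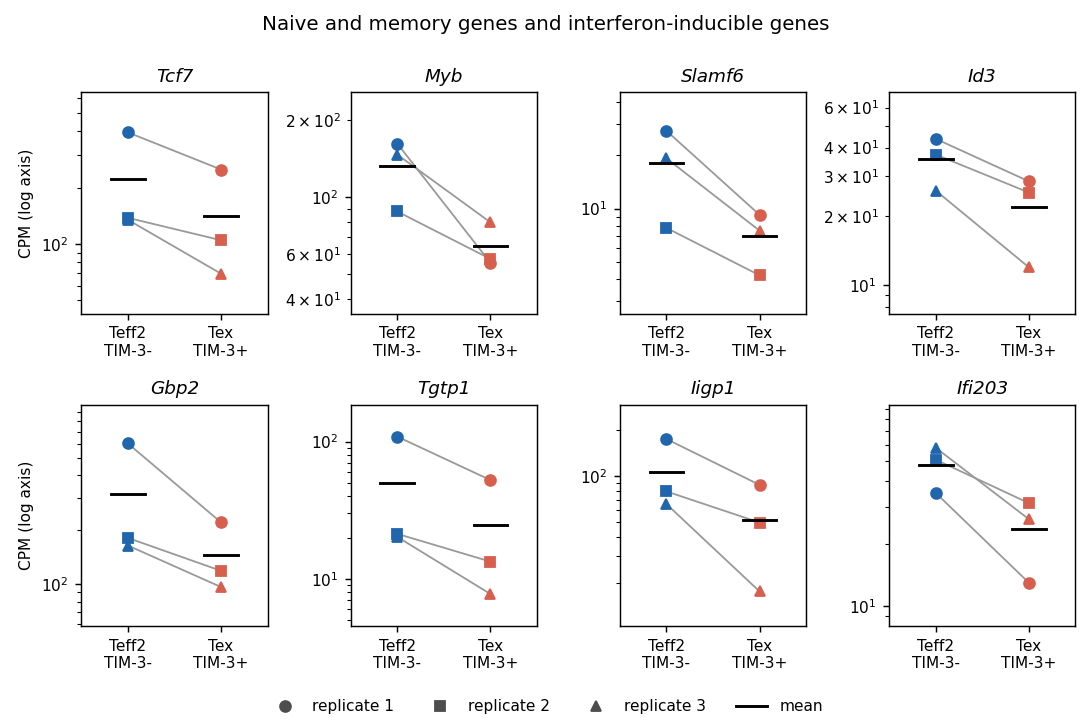
Levels in CPM (log axis) of Tcf7, Myb, Slamf6, Id3, Gbp2, Tgtp1, Iigp1 and Ifi203 in the 6 libraries, with lines joining libraries of equal replicate number and black bars at the group means. All lines slope down from Teff2 to Tex, and the groups do not overlap for Myb and Ifi203.

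The list of interferon-inducible genes gave falls as well and no rise in Tex. Of 33 tested, 8 fell, against 0.725% of all genes tested, and 32 had a negative fold change. A lower level in each of the 3 pairs was found for 25, against 19.5% of all genes tested. The list median of -0.44 was -0.64, -0.26 and -0.39 when taken over the single pairs 1, 2 and 3. The members that fell were the guanylate-binding protein gene Gbp2, the immunity-related GTPase genes Tgtp1, Iigp1 and Irgm1, and Oasl2, Ifi44, Zbp1 and Trim30a. Gbp2 stood at 602, 180.2 and 164 CPM in Teff2 and 219.7, 118 and 96.2 CPM in Tex (log2 fold change -0.95, SE 0.15, adjusted p = 0.0181), and its level in Tex of pair 1 was above that in Teff2 of pairs 2 and 3. Tgtp1 stood at 109, 21.3 and 20.2 CPM in Teff2 and 52.5, 13.4 and 7.76 CPM in Tex (log2 fold change -1.03, SE 0.13, adjusted p = 0.00909) and Iigp1 at 175, 79.3 and 65.5 CPM in Teff2 and 87.5, 49.6 and 17.5 CPM in Tex (log2 fold change -1.16, SE 0.19, adjusted p = 0.0204). Ifi44 had an opposite order of pairs, with 1.07, 14.0 and 21.3 CPM in Teff2 and 0.110, 6.55 and 10.3 CPM in Tex (log2 fold change -1.19, SE 0.21, adjusted p = 0.0311), as did Oasl2, with 0.819, 8.03 and 7.42 CPM in Teff2 and 0.164, 3.51 and 2.88 CPM in Tex (log2 fold change -1.37, SE 0.23, adjusted p = 0.0248). Of the uncalled members, Gbp5 had a log2 fold change of -0.67 (SE 0.22, adjusted p = 0.183), with its difference mainly in pair 1. Isg15, a ubiquitin-like protein of the type I interferon response, had one of -0.19 (SE 0.10, adjusted p = 0.382) and Irf7 one of -0.46 (SE 0.19, adjusted p = 0.279). Oasl2 was removed by the stricter filter. Tgtp1 and Iigp1 of the 8 stayed called without pair 3 (adjusted p = 0.0403 and 0.0304). Ifng, whose product induces many of these genes, rose in the same Tex libraries.

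Outside that list, Ifitm1, of the interferon-induced transmembrane family, rose in Tex and was called without each pair in turn. Falls outside the list included the following. Gbp9, a guanylate-binding protein gene, had a log2 fold change of -0.77 (SE 0.10, adjusted p = 0.0117). Ifi203, of a family of nuclear DNA-binding proteins, stood at 35.2, 51.0 and 58.2 CPM in Teff2 and 12.98, 31.5 and 26.3 CPM in Tex, without overlap (log2 fold change -1.08, SE 0.13, adjusted p = 0.00909), and its neighbour Mndal at 90.0, 64.6 and 104 CPM in Teff2 and 45.5, 45.9 and 64.3 CPM in Tex. Without pair 3, Gbp9 stayed called (adjusted p = 0.0312), and Ifi203 and Mndal did not (adjusted p = 0.0595 and 0.0868). By a rule chosen after the values were seen, which joins called genes of the same direction within 200.0 kb, 39 of 217 called genes with coordinates fell in 16 runs, 8 of falls and 8 of rises, with no such count made for other genes. The longest run held Trim34a, Trim12a, Trim12c, Trim30a and Trim30d on chromosome 7, between 104244448 and 104507853. Another held Irgm1, Gm12185, Tgtp1 and Tgtp2 on chromosome 11, between 48865245 and 49064212. Tgtp1 and Tgtp2, Mndal and Ifi203, and the Trim12 and Trim30 genes are close copies counted with unstated settings, so their single values are uncertain. None of the Trim genes of that run stayed called without pair 3, and Trim30d was also lost without pair 2 (adjusted p = 0.0569) and by limma (0.0573).

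Upstream sequence is shown for 4 called genes, a pair from each direction, because they are leading genes of the gate, the granules and the interferon-inducible falls, in which short motifs of known factors can be looked up. The 250 bases before the annotated start were taken from RefSeq on GRCm38.p6, 5′ to 3′ on the gene's strand, with motif matches in capitals. Motifs were searched on both strands: TGANTCA (AP-1), TGTGGT (RUNX), GAAA followed by any 2 bases and GAAA (the core of the interferon-stimulated response element, ISRE), TTCNNNGAA (GAS) and AGGTGTGA (T-box). Havcr2 (chr11:46454681-46454930, + strand) holds an AP-1 match at -200 and a RUNX match at -46. Gzmc (chr14:56234658-56234907, - strand) holds RUNX matches at -174 and -108; the start used for it lies inside the span of the gene given above. Gbp2 (chr3:142620413-142620662, + strand) holds an ISRE core at -59, an AP-1 match at -102 and a RUNX match at -226. Tgtp1 (chr11:48992247-48992496, - strand) holds an ISRE core at -77 and a GAS match at -88, apart by 2 bases.
Havcr2: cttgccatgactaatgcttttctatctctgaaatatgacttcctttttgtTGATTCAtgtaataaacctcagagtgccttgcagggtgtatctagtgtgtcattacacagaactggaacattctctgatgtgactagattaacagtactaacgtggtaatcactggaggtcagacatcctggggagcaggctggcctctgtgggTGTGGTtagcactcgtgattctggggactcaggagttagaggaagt
Gzmc: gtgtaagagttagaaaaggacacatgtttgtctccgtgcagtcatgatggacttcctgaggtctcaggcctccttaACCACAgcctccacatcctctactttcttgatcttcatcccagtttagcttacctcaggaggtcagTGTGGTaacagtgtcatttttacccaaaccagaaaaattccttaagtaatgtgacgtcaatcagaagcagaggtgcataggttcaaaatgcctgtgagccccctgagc
Gbp2: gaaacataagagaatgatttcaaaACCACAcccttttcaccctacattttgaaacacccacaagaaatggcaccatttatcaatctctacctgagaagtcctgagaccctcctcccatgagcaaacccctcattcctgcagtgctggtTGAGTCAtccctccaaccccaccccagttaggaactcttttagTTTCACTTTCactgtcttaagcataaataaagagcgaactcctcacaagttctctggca
Tgtp1: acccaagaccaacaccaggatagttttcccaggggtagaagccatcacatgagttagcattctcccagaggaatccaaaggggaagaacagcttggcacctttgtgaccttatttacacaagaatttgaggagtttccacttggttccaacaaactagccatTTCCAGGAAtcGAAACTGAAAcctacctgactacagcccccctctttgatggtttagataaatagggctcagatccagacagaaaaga

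Among 32851 windows of this length in the table, 6.75% hold the AP-1 letters, 14.05% the RUNX letters, 2.98% the ISRE core, 7.02% the GAS letters and 1.12% the T-box letters. Over the 9503 genes tested that have a window, the shares are 5.18% for AP-1, 13.2% for RUNX, 3.27% for the ISRE core, 7.18% for GAS and 0.95% for T-box. Windows were found for 102 of the 126 rises (81.0%). Of these, 18 hold AP-1 letters (17.65%), among them those of Havcr2, Ccl9, Prdm1, Tnfrsf8, S100a11 and Anxa2, 19 hold RUNX letters (18.63%) and 5 the ISRE core (4.90%). GAS letters are in 9 of the 102 (8.82%) and T-box letters in 2 (1.96%). Of the 95 falls 70 have a window (73.7%), and the other falls could not be read. Some of the 70 belong to the close copies named above, so their windows are not independent. For both reasons their counts are given as description only and no comparison is drawn. AP-1 letters are in 4 of the 70 (5.71%), RUNX letters in 12 (17.14%) and the ISRE core in 14 (20.0%), with Gbp2, Tgtp1, Tgtp2, Irgm1, Ifi203, Mndal, Ddx60, Trim12c, Trim30a and Trim30d among the last. GAS letters are in 7 of the 70 (10.0%) and T-box letters in 0. All these matches are descriptions of letters and were not tested.

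Lgals3, Lgals1, Lmna, S100a6, S100a11, Anxa2, Vim and Tubb6 rose, from a list of S100 proteins, annexins, galectins and structural genes. The list was drawn up with earlier results of these data known, so its counts are description only. Of 20 tested these 8 rose, beside 0.962% of all genes tested, none fell, and the median was 0.28. Lgals3, which encodes the sugar-binding galectin-3, stood at 60.6, 29.8 and 48.5 CPM in Teff2 and 530.1, 79.9 and 173 CPM in Tex, so all Tex libraries were above all Teff2 libraries (log2 fold change 2.15, SE 0.27, adjusted p = 0.00909). The difference was largest in pair 1, where Tex was 8.74 times Teff2. Lmna, which encodes the nuclear lamins A and C, stood at 1.84, 3.63 and 4.70 CPM in Teff2 and 12.3, 12.99 and 14.1 CPM in Tex (log2 fold change 2.00, SE 0.21, adjusted p = 0.00401). S100a6, a calcium-binding protein, stood at 6.65, 8.73 and 6.30 CPM in Teff2 and 20.6, 17.1 and 11.6 CPM in Tex and S100a11 at 112, 86.3 and 106 CPM in Teff2 and 158, 127 and 157 CPM in Tex, both without overlap. The intermediate filament gene Vim stood at 125, 826 and 774 CPM in Teff2 and 401, 1233 and 1289.7 CPM in Tex (log2 fold change 0.99, SE 0.18, adjusted p = 0.0330), with pair 1 below the rest. Lgals3, Lmna and S100a6 stayed called without pair 3, and DESeq2 did not call Vim (adjusted p = 0.0864).

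Single members of other lists changed alongside, where 0.962% of all genes tested rose and 0.725% fell. Cdkn1a, which encodes the cell cycle inhibitor p21, stood at 555, 159.7 and 168 CPM in Teff2 and 696, 215 and 248 CPM in Tex (log2 fold change 0.44, SE 0.08, adjusted p = 0.0377), and Gadd45g, a growth arrest and stress gene, at 117, 90.5 and 43.2 CPM in Teff2 and 195, 158 and 94.5 CPM in Tex (log2 fold change 0.89, SE 0.09, adjusted p = 0.00377). They were the 2 called genes of 25 p53 targets and cyclin-dependent kinase inhibitors. In the integrated stress response list, 17 of 18 genes had a positive fold change (median 0.24) and 2 rose, Nupr1 (log2 fold change 1.15, SE 0.11, adjusted p = 0.00284) and Trib3 (log2 fold change 0.37, SE 0.07, adjusted p = 0.0478). Cd36, a receptor for fatty acid uptake, stood at 0.461, 0.956 and 0.907 CPM in Teff2 and 5.15, 2.72 and 9.30 CPM in Tex (log2 fold change 2.83, SE 0.37, adjusted p = 0.0105) and was the only called gene of 20 genes of fatty acid metabolism. Dusp5, a phosphatase of nuclear ERK, stood at 114, 117 and 113 CPM in Teff2 and 181, 158 and 235 CPM in Tex, without overlap (log2 fold change 0.72, SE 0.11, adjusted p = 0.0200). Single rises came also from lists of 20, 23 and 20 tested genes, those of the endoplasmic reticulum (Sdf2l1, log2 fold change 0.41, SE 0.08, adjusted p = 0.0356), hypoxia (Ndrg1, log2 fold change 0.60, SE 0.10, adjusted p = 0.0204) and homing and adhesion (Cd63, log2 fold change 1.15, SE 0.17, adjusted p = 0.0160). Single falls came from the T cell receptor list of 27 (Fyb, an adaptor of the receptor, log2 fold change -0.60, SE 0.12, adjusted p = 0.0466) and the BCL2 list of 24 (Bcl2l11, which encodes the death-promoting protein BIM, log2 fold change -0.46, SE 0.08, adjusted p = 0.0248). Gadd45g and Nupr1 stayed called without pair 3 and the other 9 did not. With the stricter filter Trib3 and Fyb had adjusted p values of 0.0545 and 0.0527.

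The 10 lists with no called member covered proliferation, core metabolism, protein synthesis, class I presentation and chromatin. Of their 270 members tested, edgeR called 0, 39 had an unadjusted p under 0.05, a smaller share than the 16.6% of all genes tested, and DESeq2 with the block, which called 2.62% of its genes, called 5. The S phase list had a median of 0.03 (32 genes) and the G2 and M phase list one of 0.12 (30 genes), the latter being 0.54 in pair 1 and -0.008 and -0.022 in pairs 2 and 3. Glycolysis genes had a median of 0.06 and respiratory chain genes one of 0.12. Of the latter, 17 of 30 were higher in all 3 pairs, against 21.2% of all genes tested. Mki67, a marker of cycling cells, stood at 239.7, 885 and 817 CPM in Teff2 and 303, 705 and 799 CPM in Tex, with pair 1 low in both groups (log2 fold change -0.009, SE 0.12, adjusted p = 0.981). Class I presentation genes had a median of -0.16, with 15 of 18 negative, and H2-K1 among them a log2 fold change of -0.15 (SE 0.10, adjusted p = 0.470). A p that misses the threshold does not show that these genes were equal.

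**Figure D5:**
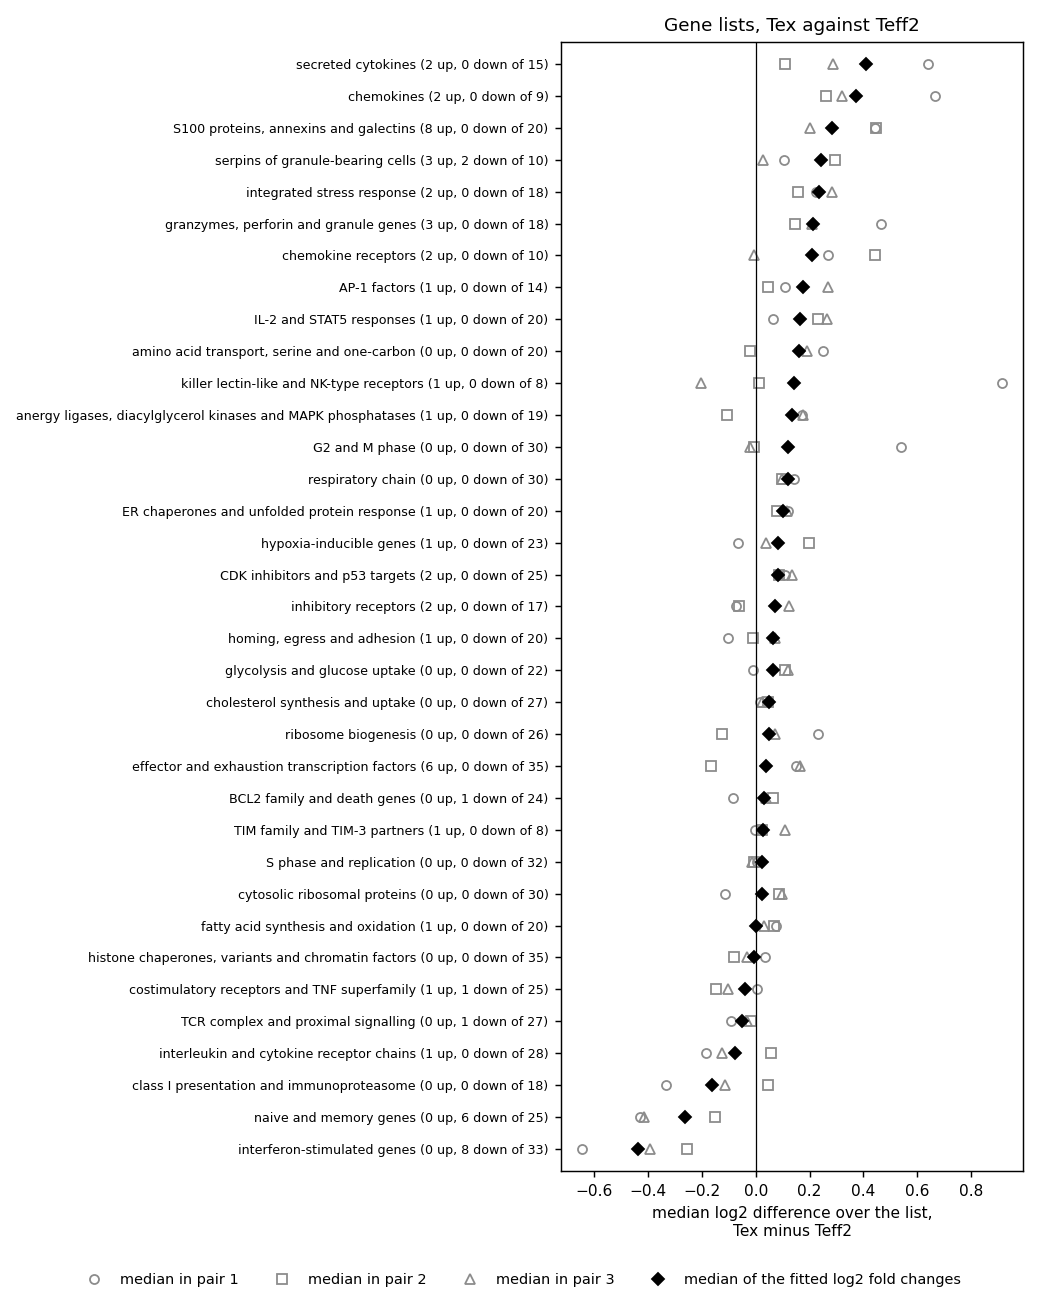
Median log2 difference, Tex minus Teff2, over the tested members of each of the 35 gene lists: black diamonds show the median of the fitted fold changes, and open symbols the median within each pair. Labels give the members called higher and lower and the number tested; medians run from -0.44 for interferon-stimulated genes to 0.41 for secreted cytokines.

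The genes that the naming rule took for their large changes or small p values included some of no list. Slc16a11, a monocarboxylate transporter of the solute carrier family, stood at 7.37, 6.37 and 14.7 CPM in Teff2 and 32.8, 24.3 and 40.7 CPM in Tex, without overlap (log2 fold change 1.83, SE 0.14, adjusted p = 0.00101), and was called without each pair in turn. Adam8, a surface metalloprotease, stood at 52.9, 8.28 and 11.4 CPM in Teff2 and 121, 47.7 and 79.8 CPM in Tex (log2 fold change 2.09, SE 0.26, adjusted p = 0.00909), and was called without each pair as well. Inhba, a subunit of activin, stood at 7.16, 1.15 and 1.33 CPM in Teff2 and 32.2, 2.56 and 2.93 CPM in Tex (log2 fold change 1.71, SE 0.24, adjusted p = 0.0145), and had an adjusted p of 0.0536 without pair 1. Cst3, a secreted inhibitor of cathepsins, stood at 92.0, 88.9 and 168 CPM in Teff2 and 145, 129.9 and 265 CPM in Tex (log2 fold change 0.62, SE 0.08, adjusted p = 0.00885), and was not called without pair 3 (adjusted p = 0.0879). Among the falls, Igsf3 stood at 79.4, 3.38 and 4.38 CPM in Teff2 and 35.7, 2.61 and 1.85 CPM in Tex (log2 fold change -1.00, SE 0.17, adjusted p = 0.0232), with its level almost all in pair 1, and was not called without that pair (adjusted p = 0.133), without pair 3 (0.127) or by limma (0.0596). Sspo was above 10 CPM in pair 1 only, with 34.7, 0.319 and 1.71 CPM in Teff2 and 11.2, 0.213 and 0.411 CPM in Tex, and failed the stricter filter, and the usual one without that pair, with an adjusted p of 0.0738 by limma. Chst15, a sulfotransferase, had a log2 fold change of -1.08 (SE 0.21, adjusted p = 0.0397) and Ipcef1 one of -0.55 (SE 0.09, adjusted p = 0.0204), and neither was called without pair 3 (adjusted p = 0.167 and 0.0868).

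Markers of other cells were read beside these results. CD8 T cell markers summed to 3344 to 4107 CPM in Teff2 and 3333 to 4233 CPM in Tex, with overlap between groups. CD4 and regulatory T cell markers summed to 303 to 583 CPM in Teff2 and 243 to 657 CPM in Tex, with Ctla4 the most abundant. Antigen-presenting cell markers summed to 68.9 to 173 CPM in Teff2 and 62.3 to 108 CPM in Tex, with Cd74 the most abundant. In these sets no marker was under 1 CPM in all 6 libraries. NK cell markers summed to 20.3 to 34.4 CPM in Teff2 and 43.6 to 70.9 CPM in Tex, and 3 of the 8 rose, Eomes, Gzma and Fcer1g, all of which CD8 T cells can express. Without Eomes the sum was 0.191 to 1.84 CPM in Teff2 and 0.905 to 14.8 CPM in Tex, highest in pair 1 in both groups. The defining NK receptor Ncr1 had counts in 1 library only, Tex of replicate 1, at 0.603 CPM, and Klrb1c stood at 0.0512, 0 and 0.107 CPM in Teff2 and 1.31, 0 and 0.462 CPM in Tex. The part of NK cells in the rise of Gzma, Fcer1g and Cd244 was not tested. Gamma delta T cell markers summed to 1.84 to 4.22 CPM in Teff2 and 4.74 to 7.62 CPM in Tex, and Tcrg-C2 had a log2 fold change of 1.09 (SE 0.28, adjusted p = 0.103). All 7 neutrophil markers were under 1 CPM in all 6 libraries, as were 8 of 10 macrophage and monocyte markers, and B cell markers, nearly all from Ighm, summed to 129 to 258 CPM in Teff2 and 92.2 to 181 CPM in Tex. In the dendritic cell list Clec10a rose, from at most 0.307 CPM to at most 2.63 CPM, and in the endothelial list Pecam1, which T cells also carry, stood at 39.6, 66.5 and 81.2 CPM in Teff2 and 16.7, 44.4 and 55.6 CPM in Tex and fell (log2 fold change -0.77, SE 0.13, adjusted p = 0.0248), while Cdh5 was at 0 in all 6. Neither Clec10a nor Pecam1 was called without pair 3 (adjusted p = 0.0879 and 0.0800), and Clec10a was also lost without pair 1 (0.0811), by DESeq2 (0.0651), by limma (0.0632) and with the stricter filter.

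Levels in the other states place the day 5 groups, as a description without a test. Levels in Tn and Teff1 are on a scale fitted over all 12 RNA libraries. Levels in Teff2 and Tex are on the scale of the 6 day 5 libraries used above. Orders across these scales are therefore approximate. Gzmc was at 0.476, 0.285 and 0.424 CPM in Teff1, after 0.331, 0.341 and 0.215 CPM in Tn, and Serpinb9b at 0.143, 0 and 0 CPM in Teff1, after 1.92, 0 and 2.85 CPM in Tn. Both were thus at or under 0.476 CPM on day 2, and above that in each day 5 library on the day 5 scale. Havcr2 was at 0.523, 0.380 and 0.182 CPM in Teff1, after 2.45, 0.409 and 2.20 CPM in Tn. Serpinb9 was at 80.0, 79.3 and 104 CPM in Teff1, after 28.2, 18.7 and 25.7 CPM in Tn, and Ifng at 117, 179.7 and 311 CPM in Teff1, after 11.7, 0.204 and 5.91 CPM in Tn. For Serpinb9 the order of means was Tn, Teff1, Teff2 and Tex. Tcf7 was at 1322 ± 230.0 CPM in Tn (mean ± SD, n = 3) and 262 ± 36.7 CPM in Teff1, above its 222 ± 149 CPM in Teff2 and 141 ± 95.6 CPM in Tex, where Teff1 and Teff2 overlapped. Slamf6 ran down in the same order of means, from 123 ± 8.36 CPM in Tn over 35.0 ± 10.8 CPM in Teff1 and 18.1 ± 9.85 CPM in Teff2 to 6.97 ± 2.54 CPM in Tex. Myb did not, with 47.1 ± 22.9 CPM in Tn, 67.8 ± 15.9 CPM in Teff1, 132 ± 39.0 CPM in Teff2 and 64.3 ± 13.5 CPM in Tex. Gbp2 was at 795, 222 and 587 CPM in Teff1, after 61.5, 91.2 and 70.8 CPM in Tn, and Prdm1 at 0.618, 2.14 and 1.52 CPM in Teff1, after 5.44, 2.18 and 7.74 CPM in Tn.

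The pairs differed from each other in what they shared and in how far Tex and Teff2 lay apart. The difference of Tex and Teff2 correlated across genes with r = 0.24 between pairs 1 and 2, 0.41 between pairs 1 and 3 and 0.42 between pairs 2 and 3, over 13096 genes that are not independent replicates. The called rises had median log2 differences of 0.86, 0.63 and 0.91 in pairs 1, 2 and 3, and the called falls -0.77, -0.54 and -0.68. Pair 1 stood apart in both groups: its 2 libraries held the lowest levels of Ifng, Gzmb, Prf1, Vim and Mki67 and the highest of Tcf7, Gbp2, Tgtp1 and Ccl9. Pair 2 held the lowest levels of Gzmc, Serpinb9b and Havcr2 in both groups. What sets the pairs apart is not given in the labels.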

How the data were processed

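Values came from the deposited matrix of raw gene counts of the RNA-seq libraries (34573 symbols, whole-number counts from the authors' counting). Per the submitters' processing notes the tools were HISAT2, HTSeq, DESeq2, BWA and Juicer on mm10; roles, versions, strand settings and treatment of reads that fit several genes are not given in the sources used here. Antisense, overlapping and near-identical genes are therefore uncertain. A second deposited matrix holds the authors' normalized values on a log2 scale, whose transformation is not stated, and served as an alternative only. Symbols were matched to RefSeq (GRCm38.p6) for 80.2% of rows.

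The 6 day 5 libraries (16296903 to 19598158 counts) were fitted in edgeR 4.0.16 (R 4.3.3): TMM factors, filter by expression (13096 genes kept), replicate number as a block, quasi-likelihood F test, Benjamini-Hochberg adjustment over all genes tested, called at an adjusted p under 0.05. Adjusted p values in the text are from this test unless DESeq2 (1.42.0), limma, another filter or a pair left out is named. The SE is the fold change divided by the square root of F. The block was set with the choice of libraries. Deviations from the group means correlated across genes at r = 0.86, 0.80 and 0.78 within 1 number, against -0.69 to 0.12 between numbers. Deviations within a group cancel out, so values between numbers are pushed down where those within numbers are high. That equal numbers go together is read from the data and not from the labels. The fit has 2 residual degrees of freedom and a common dispersion of 0.00941 (0.114 without the block). Differences within single pairs used log2 CPM with 0.5 CPM added.

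Libraries, gene lists (35), markers and the naming rule were chosen with earlier results of these data known. The rule named the 10 largest rises and falls with at least 10 CPM, the 5 smallest p values each way with at least 100.0 CPM, up to 3 called members of a list and 1 in the other direction with at least 2 CPM, the sorted proteins, the TIM family, the top marker of each other cell type, and 8 genes usually read in such cells (predicted genes left out of the first 2). Of 72 genes so named and tested, 55 were called; any other gene printed was chosen after its values were seen. Alternatives were other scaling factors (RLE, upper quartile), other low-count filters (none, or 1 CPM), DESeq2, limma (3.58.1) on the normalized matrix, no block, all 12 libraries, and each pair left out. Some items that the rule names are not reported here.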

Additional observations from a re-analysis of the deposited data

How the results depend on the processing

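The 221 genes called, 79 of them at 2-fold or more, became 0 and 0 without the replicate block, 1 and 1 in a fit of all 12 RNA libraries without the block, and 12 and 10 in DESeq2 without the block, an alternative added after the data were seen. Without a filter on low counts 968 and 209 were called; limma on the deposited normalized values called 229, of which 33 at 2-fold or more. Leaving out 1 pair gave 39 to 688 genes called, and 31 to 177 at 2-fold or more. RLE factors (227), upper-quartile factors (224), the stricter filter (192) and DESeq2 with the block (330) stayed within 1.5 times of 221. Of the 221, 221 (RLE), 219 (upper quartile), 209 (DESeq2) and 198 (limma) were called the same way. Without pairs 1, 2 and 3, 206, 212 and 35 were. All with a value kept their sign in every alternative, which their same direction in each pair nearly fixed in advance. Fold changes that turned sign all belong to uncalled genes. Ctla4 turned to 0.15 without the block, 0.16 with all 12 libraries and 0.16 in DESeq2 without the block, and Zbtb46 turned to -0.039, -0.029 and -0.039 in these 3 fits. Over the fits that leave out 1 pair, log2 fold changes ran from -0.28 to 0.30 for Ctla4, -0.018 to 0.50 for Zbtb46, -0.16 to 0.38 for Cd44, -0.11 to 0.0058 for Cd8b1, -0.051 to 0.43 for Epor and -0.15 to 0.16 for Tbx21. The cause of these changes was not tested. With 2 residual degrees of freedom, single calls are sensitive to each pair, and levels under 0.153 to 0.184 CPM are below 3 counts.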

Other observations

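Of the 221 called genes 162 belong to none of the 35 lists, and the following were picked from them after their values were seen. Rises included the metallothionein genes Mt1 (97.6, 190.3 and 70.2 CPM in Tex against 47.1, 125 and 53.6 CPM in Teff2, log2 fold change 0.68) and Mt2 (log2 fold change 0.67), which bind zinc and copper and are close copies. They also included Srxn1, which repairs peroxiredoxins (23.9, 8.997 and 10.1 CPM against 9.26, 3.82 and 3.90 CPM, log2 fold change 1.33), the peroxiredoxin gene Prdx5 (log2 fold change 0.50), the ferritin light chain gene Ftl1 (log2 fold change 0.39) and Sqstm1, an autophagy receptor (log2 fold change 0.41). Srxn1 and Mt1 were called without each pair in turn; Mt2, Prdx5, Ftl1 and Sqstm1 were not called without pair 3, nor Ftl1 without pair 2 (adjusted p = 0.0671) or with the stricter filter (0.0508).

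Gcnt1, which starts core 2 branches on O-glycans, rose (6.08, 9.53 and 14.5 CPM in Tex against 2.56, 5.99 and 5.71 CPM in Teff2, log2 fold change 1.08, SE 0.18, adjusted p = 0.0225), as did Gcnt4 (log2 fold change 1.52, SE 0.24, adjusted p = 0.0205). The sialyltransferase genes St8sia1 (log2 fold change -0.78, SE 0.13, adjusted p = 0.0237) and St8sia4 (log2 fold change -0.59, SE 0.11, adjusted p = 0.0311) fell, and so did Cmah, which encodes the enzyme that hydroxylates sialic acid (29.5, 45.7 and 58.4 CPM against 63.7, 63.5 and 95.4 CPM, without overlap). None of these 5 was called without pair 3.

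Falls among surface proteins were those of Dpp4, which encodes CD26 (74.6, 88.6 and 128 CPM in Tex against 134, 114 and 195 CPM in Teff2, log2 fold change -0.60, SE 0.10, adjusted p = 0.0225), Ly6a, which encodes Sca-1 (276, 305 and 306 CPM against 463, 400.3 and 409 CPM, log2 fold change -0.52, SE 0.09, adjusted p = 0.0306), and Igf1r, the receptor of insulin-like growth factor 1 (log2 fold change -0.74, SE 0.11, adjusted p = 0.0179). Aff3, a nuclear factor, was lower at 57.6, 49.5 and 45.1 CPM against 98.2, 84.8 and 88.6 CPM, without overlap (log2 fold change -0.84, SE 0.08, adjusted p = 0.00259), and was called without each pair in turn. Pdgfb, a subunit of platelet-derived growth factor, rose to 39.6, 28.1 and 18.5 CPM from 29.1, 17.8 and 12.3 CPM, and Il23a, a subunit of IL-23, rose to 101, 13.1 and 38.4 CPM from 67.4, 7.58 and 19.4 CPM. Without pair 3, Dpp4, Ly6a, Igf1r, Pdgfb and Il23a were not called (adjusted p = 0.148, 0.179, 0.133, 0.248 and 0.111).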
